A study of Mus musculus with 6 samples.

Results

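Pi15, Faah, Susd5 and Prdm16 are 4 autosomal genes of the 23337 in the deposited count table. They were taken by name, as genes expressed in neonatal replicates 7 and 8 and near 0 in 3 adult libraries (replicates 1, 2 and 4). These 5 libraries chose the genes, so their neonatal and adult levels are described below without a test. The rule used no value of neonatal replicate 4. The RNA came from mouse leukaemia initiating cells (LICs), purified by sorting, which are the leukaemia cells that can start the disease again. The neonatal group held 3 libraries (replicates 4, 7 and 8) of LICs from neonatal leukaemia, and the adult group 3 libraries (replicates 1, 2 and 4) of LICs from adult leukaemia. The source of every library is given as haematopoietic stem and progenitor cells, and the labels state neither the leukaemia's driver, the strain, the sex nor the sorting markers. They also do not state separate animals, so the spread between libraries may be technical.

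Pi15 encodes a secreted protein of the CAP superfamily described as a trypsin inhibitor. Faah encodes the membrane hydrolase that breaks down anandamide and other fatty acid amides and so ends their signalling. Susd5 encodes a little-studied membrane protein with a sushi domain and a link domain, a fold that binds hyaluronan in other proteins. Prdm16 encodes a zinc finger regulator of the PRDM family. It maintains haematopoietic stem cells in mice, sets brown fat identity, and is rearranged in some human leukaemias.

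Neonatal replicate 4 held 3932833 counts. The other 5 libraries held 60113466 to 66132051, on average 16.2 times as many. A gene with 3 counts in a library, the floor used for a count of 0, stood at 0.897 CPM (counts scaled to TMM-adjusted library size) in neonatal replicate 4 and at 0.0425 to 0.0503 CPM in the others. These floors, and the exact Poisson intervals given below at 95% confidence, cover counting error only. Xist, the female-specific RNA of X inactivation, lay at 51.7 to 186 CPM in neonatal LICs, against 0.610 to 0.919 in adult ones. Y-linked Ddx3y was at 0 to 0.0148 CPM in neonatal LICs, against 98.8 to 154 in adult ones. Sex and age group therefore cannot be told apart in any gene below.

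All 4 genes were high in neonatal replicates 7 and 8, and they parted in neonatal replicate 4. Pi15 and Prdm16 stood there at or above the level of replicates 7 and 8, Faah stood between the groups, and Susd5 stood at the level of the highest adult library. In the adult libraries Pi15, Faah and Susd5 were near 0, while Prdm16 was clearly present in replicate 1. In bulk RNA, fewer cells that express a gene and less RNA per cell cannot be told apart.

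Pi15 (chromosome 1, 17601901 to 17630939, plus strand, mm10, 6923 exonic bases in 6 blocks) had CPM of 18.53, 7.88 and 10.46 in neonatal replicates 4, 7 and 8, against 0.385, 0.268 and 0.358 in adult replicates 1, 2 and 4. The neonatal libraries all lay above the adult ones, and neonatal replicate 4 was the highest of the 6. Mean CPM was 12.29 ± 5.56 in neonatal LICs, against 0.337 ± 0.0615 in adult LICs (SD, n = 3 each), a log2 difference of 4.99 with 0.05 CPM added. The adult libraries did carry Pi15 reads, with 18 to 23 counts each.

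Prdm16 (chromosome 4, 154316125 to 154636873, minus strand, 8608 exonic bases in 17 blocks) had CPM of 16.74, 18.54 and 13.59 in neonatal replicates 4, 7 and 8, against 3.49, 0.134 and 0 in adult replicates 1, 2 and 4. It was the steadiest of the 4 in neonatal LICs, with an SD of 15.4% of the mean. Adult replicate 1 held 208 of the 217 adult counts, so Prdm16 was not near 0 in every adult library. Mean CPM was 16.29 ± 2.51 in neonatal LICs, against 1.21 ± 1.97 in adult LICs (SD, n = 3 each). The log2 difference was 3.70, and 7.13 without adult replicate 1. A short gene model on the same strand, 5930403L14Rik, lies within Prdm16 and had 1 to 26 counts per library.

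Faah (chromosome 4, 115996656 to 116017902, minus strand, 3816 exonic bases in 15 blocks) had CPM of 1.20, 8.47 and 6.95 in neonatal replicates 4, 7 and 8, against 0, 0 and 0.0468 in adult replicates 1, 2 and 4. It came closest to being absent from adult LICs, with 3 counts in all, every one of them in adult replicate 4. Mean CPM was 5.54 ± 3.84 in neonatal LICs, against 0.0156 ± 0.0270 in adult LICs (SD, n = 3 each), a log2 difference of 6.41 with 0.05 CPM added. With the reads of each side pooled, neonatal replicates 7 and 8 stood 492-fold above the adult libraries (95% counting interval 168 to 2390). The width of that interval comes from the 3 adult reads, so the size of the Faah difference is poorly fixed. The interval also leaves out the spread between libraries and the choice of Faah on these same libraries.

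Susd5 (chromosome 9, 114057354 to 114098733, plus strand, 3874 exonic bases in 5 blocks) had CPM of 0.897, 46.35 and 105.8 in neonatal replicates 4, 7 and 8, against 0.318, 0.863 and 0 in adult replicates 1, 2 and 4. It reached the highest level of the 4 genes in neonatal replicates 7 and 8 and differed 2.28-fold between them. Neonatal replicate 4 did not join them, with 3 counts. Mean CPM was 51.0 ± 52.6 in neonatal LICs, against 0.394 ± 0.437 in adult LICs (SD, n = 3 each), a log2 difference of 6.85, and of 7.42 without neonatal replicate 4. The neonatal SD was larger than the neonatal mean.

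**Figure D1:**
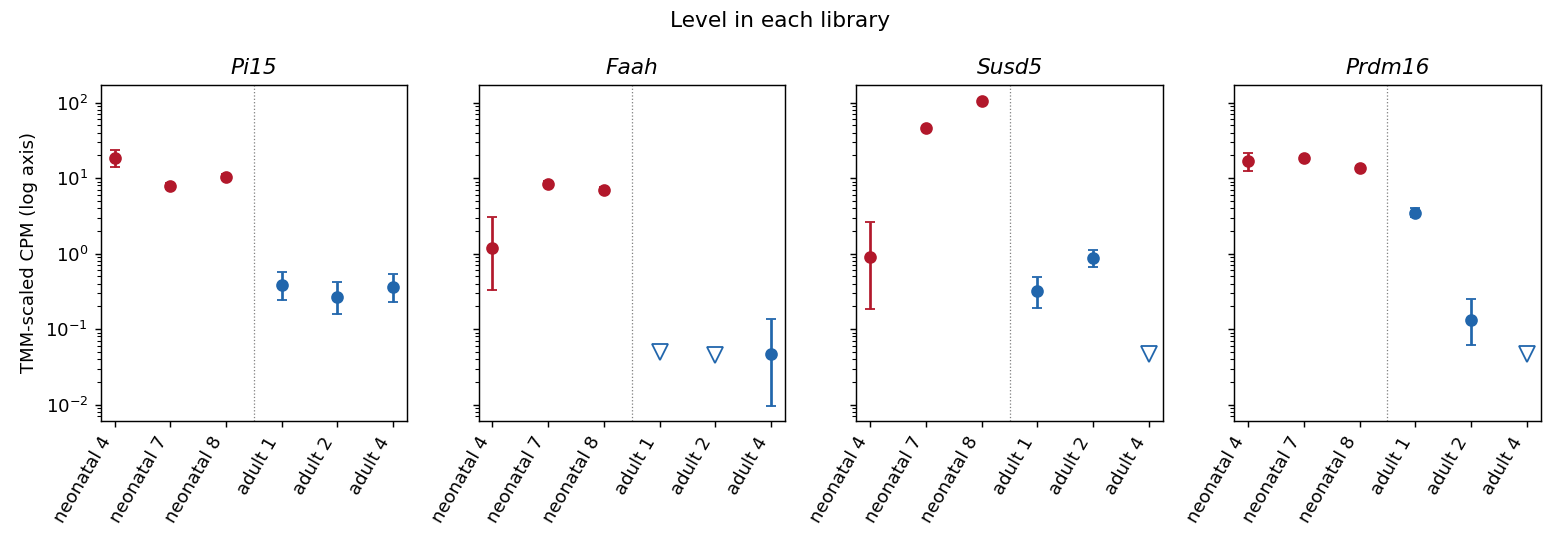
TMM-scaled CPM (log axis) of each gene in each library, neonatal libraries in red at the left and adult libraries in blue at the right of each panel. Bars are exact 95% Poisson intervals, and open triangles mark the floor of 3 counts where the count was 0. Susd5 in neonatal replicate 4 (0.897 CPM) sits beside adult replicate 2 (0.863 CPM), and Prdm16 in adult replicate 1 (3.49 CPM) stands above the other adult libraries.

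Read as a yes or no, neonatal replicate 4 was above every adult library for all 4 genes on the TMM scale, so the groups did not overlap. Among the 13272 genes that passed the low-count filter, 7.67% had every neonatal library above every adult one. All 4 genes passed that filter, and 5 of the 6 libraries had been used to choose them, so nothing is read from the count. For Susd5 the order rested on the scaling. On library totals without TMM, neonatal replicate 4 was at 0.763 CPM and the highest adult library at 0.890 CPM.

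Expected counts take the low depth of neonatal replicate 4 into account. The intervals given with them cover counting error alone and leave out the spread between libraries. For Pi15 it held 62 reads (95% interval 47.5 to 79.5). The mean level of neonatal replicates 7 and 8 would give 30.7 reads at this depth and the adult mean 1.13. Its Pi15 level was 202% of the replicate 7 and 8 mean. For Prdm16 it held 56 reads (42.3 to 72.7), against 53.7 expected at the replicate 7 and 8 mean and 11.7 at the level of the highest adult library. Both intervals lay above the count expected at the level of any adult library.

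For Faah neonatal replicate 4 held 4 reads (1.09 to 10.2), against 25.8 expected at the replicate 7 and 8 mean and 0.156 at the level of the highest adult library. Its counting interval, which leaves out the spread between libraries, excluded both levels, at 15.5% of the replicate 7 and 8 mean. For Susd5 it held 3 reads (0.619 to 8.77), against 255 expected at the replicate 7 and 8 mean and 2.89 at the level of the highest adult library. Susd5 was at 1.18% of the replicate 7 and 8 mean, and a difference from the adult libraries was not detectable at this depth. With 1 library against 3, the smallest p of an exact permutation test is 0.25, so no test was made.

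**Figure D2:**
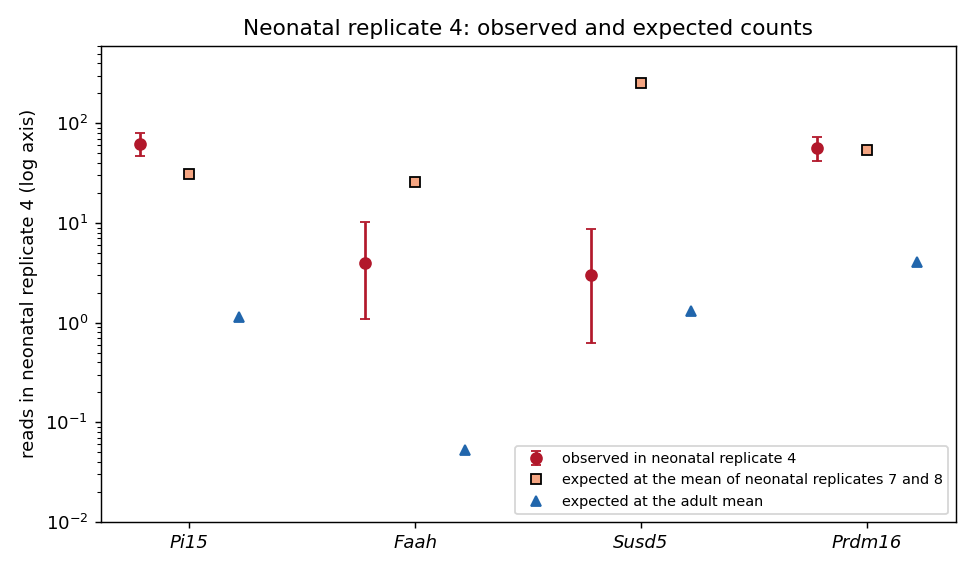
Reads in neonatal replicate 4 (log axis) for each gene. Red points are observed counts with exact 95% Poisson intervals, squares the counts expected at the mean level of neonatal replicates 7 and 8, and triangles those expected at the adult mean. Prdm16 (56 observed, 53.7 expected) is level with its square, Pi15 (62) lies above it, and Faah (4) and Susd5 (3) lie below it.

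The same comparison over all genes gives the background. A gene was counted when its lower CPM of neonatal replicates 7 and 8 was at least 2 and at least 4 times the highest adult CPM, and 109 genes (0.644% of genes with a count) met this. Pi15, Faah and Susd5 were among them, while Prdm16 missed at 3.9 times, again through adult replicate 1. Of the 109 genes, neonatal replicate 4 was above the highest adult library in 74 (67.9%), and in 58 (53.2%) by the lower bound of its Poisson interval, a criterion chosen after seeing the data. It had 0 counts in 16. The median gene stood in neonatal replicate 4 at 21.2% of its replicate 7 and 8 mean, with quartiles of 6.81% and 47.9%.

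Against that background the genes took different places. Pi15 stood higher in this measure than 104 of the 109 genes. Faah stood higher than 45 of them, near the middle. Susd5 stood higher than only 16, which is the number of genes at 0 in neonatal replicate 4, so it was the lowest of the genes with any read there. In that library 1 read stands at 0.299 CPM. A gene with a low replicate 7 and 8 mean could thus only be at 0 or above Susd5 in this measure. Ly6k, Xist, Ccdc40 and Nr0b2, named here after their values were seen, were the 4 genes above Pi15.

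**Figure D3:**
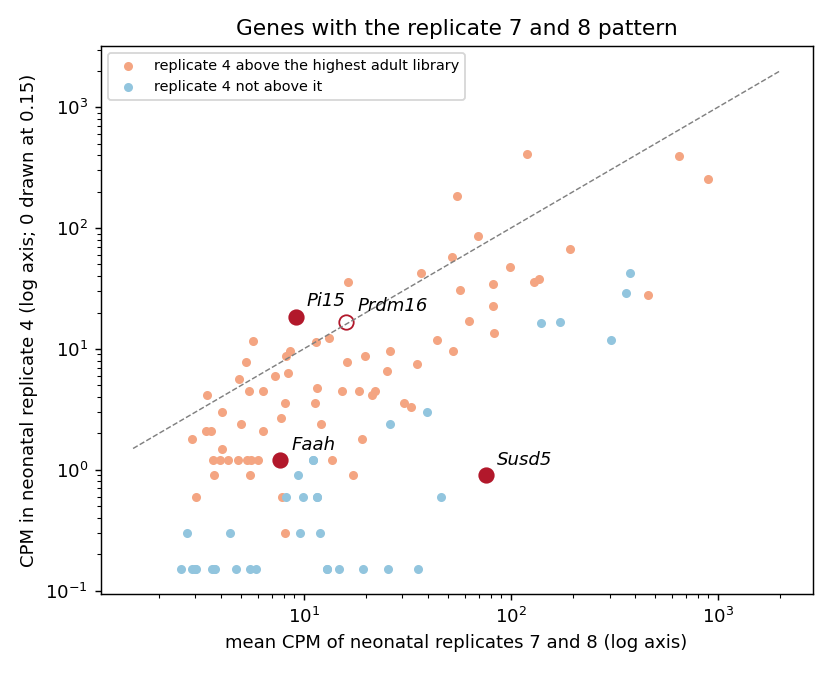
CPM in neonatal replicate 4 against the mean CPM of neonatal replicates 7 and 8 (log axes), for the 109 genes high in replicates 7 and 8 and low in every adult library. Orange genes are above the highest adult library in replicate 4, blue ones are not, and the dashed line marks equal levels. Genes at 0 in replicate 4 are drawn along the lower edge. Pi15 lies above the line, Prdm16 (open circle, not of the 109) next to it, and Faah and Susd5 below it.

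Per length of transcript, Susd5 led in neonatal replicates 7 and 8, while Pi15 and Prdm16 led in neonatal replicate 4. In neonatal replicate 8 the level per kb of exon was 27.3 CPM per kb for Susd5, 1.82 for Faah, 1.58 for Prdm16 and 1.51 for Pi15. The order was the same in neonatal replicate 7, at 12 CPM per kb for Susd5, 2.22 for Faah, 2.15 for Prdm16 and 1.14 for Pi15. In neonatal replicate 4 it was 2.68 CPM per kb for Pi15, 1.94 for Prdm16, 0.313 for Faah and 0.231 for Susd5. Faah and Prdm16 differed by less than the spread between replicates 7 and 8. The order of Faah and Susd5 in neonatal replicate 4 rested on 4 and 3 reads and is not resolved. Nor is that of Prdm16 and Pi15 in neonatal replicate 8, where the levels were close. Susd5 stood above 84.7% of all 23337 genes in neonatal replicate 8, and the other 3 stood above 58.0% to 59.2%. These shares count genes with no read as lower. The 3 genes ranked 9513 to 9806 from the top, and 14734 genes had a read there.

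Markers were read to check the label and to look for other cells. The 6 progenitor markers (Ptprc, Kit, Cd34, Flt3, Myb and Spi1, listed as Sfpi1) were detected in every library, with summed levels of 1770 to 3840 CPM in neonatal LICs, against 1600 to 2160 in adult ones. Cd34 was at 396 to 662 CPM in neonatal LICs, against 8.16 to 105 in adult ones. Flt3 had CPM of 256, 568 and 1231 in neonatal replicates 4, 7 and 8, against 6.59, 19.4 and 4.58 in adult replicates 1, 2 and 4. Kit was high in the same neonatal pair as Susd5, with 23.6, 264 and 186 CPM in neonatal replicates 4, 7 and 8, against 50.1 to 85.8 in adult LICs. The part of Cd34, Flt3 and Kit in the levels of the 4 genes was not tested. Some defining genes of other lineages were at 0 in all 6 libraries: Cdh5, Kdr and Emcn of endothelium, Col3a1 of stroma, Ms4a1 and Pax5 of B cells, Cd3e and Cd4 of T cells, and Plin1 and Ucp1 of fat. Other markers of these lists had reads, and of the 7 stromal markers only 1 was at 0 throughout. Lepr, a stromal marker, was at 1.69 to 7.47 CPM in neonatal LICs, against 3.71 to 6.10 in adult ones. Cxcl12, another, reached 3.62 CPM in adult replicate 4. Summed T cell, natural killer cell and erythroid markers reached at most 1.85, 2.09 and 3.66 CPM in any library.

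Some marker sums differed between the groups, and the neutrophil sum went the opposite way to the 4 genes. The 6 neutrophil markers summed to 5.01 to 112 CPM in neonatal LICs, against 1740 to 14300 in adult ones. The 5 mast cell markers summed to 76.6 to 152 CPM in neonatal LICs, against 18.6 to 42.3 in adult ones. Most of the neonatal sum was Cpa3, while Tpsb2, Cma1 and Fcer1a were at 0 in every library. The 7 stromal markers summed to 20.9, 60.3 and 111 CPM in neonatal replicates 4, 7 and 8 and to 11.8 to 17.4 CPM in adult LICs. Most of the neonatal sum was Pdgfrb, a receptor tyrosine kinase gene, and Col1a1 and Col1a2 were at 0 in the neonatal libraries. Endothelial markers summed to 64.0 to 96.5 CPM in neonatal LICs, against 22 to 63.8 in adult ones, nearly all of it Pecam1. The B cell sum, mostly Cd79b, was 72.0 to 147 CPM in neonatal LICs, against 28.5 to 69.4 in adult ones. Megakaryocyte markers (1.79 to 47.7 CPM in neonatal, 1.26 to 15.2 CPM in adult) and adipocyte markers (1.38 to 13.5 CPM in neonatal, 1.84 to 25.8 CPM in adult) overlapped between the groups. The part of these markers in the levels of the 4 genes was not tested.

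Promoters are shown to compare the letters just before the starts of genes that were high in the same libraries. RefSeq's table (GRCm38.p6, the assembly of mm10) held Faah, Susd5 and Prdm16. Each sequence is the 250 bases before the start, on the gene's strand, with motif matches in capitals. The regions are chr4:116017925-116018174 on the minus strand, chr9:114057104-114057353 on the plus strand and chr4:154636874-154637123 on the minus strand. The RefSeq start of Faah lies 22 bases outside the gene model of the count table, and the other 2 starts are the same.
Faah: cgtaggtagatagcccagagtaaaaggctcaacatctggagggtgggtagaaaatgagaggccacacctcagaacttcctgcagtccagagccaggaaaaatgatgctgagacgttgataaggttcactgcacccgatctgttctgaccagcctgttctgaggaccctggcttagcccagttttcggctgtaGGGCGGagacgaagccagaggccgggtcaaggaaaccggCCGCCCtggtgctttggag
Susd5: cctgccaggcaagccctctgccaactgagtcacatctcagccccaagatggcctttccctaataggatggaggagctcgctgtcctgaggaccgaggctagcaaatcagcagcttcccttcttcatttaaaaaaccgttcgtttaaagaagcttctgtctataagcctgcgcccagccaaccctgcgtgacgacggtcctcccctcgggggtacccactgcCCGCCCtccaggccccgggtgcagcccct
Prdm16: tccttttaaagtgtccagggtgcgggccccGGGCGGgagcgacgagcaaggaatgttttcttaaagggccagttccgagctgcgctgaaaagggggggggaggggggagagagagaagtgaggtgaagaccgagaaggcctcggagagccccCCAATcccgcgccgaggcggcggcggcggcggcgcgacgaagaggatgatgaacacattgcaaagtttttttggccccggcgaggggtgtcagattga
The capitals mark SP1 (GGGCGG or its reverse complement) in all 3 and, in Prdm16, a CCAAT box.

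Of 8 motifs searched on both strands, the 3 promoters had only SP1 in common. SP1 letters occur in 32.9% of 27025 promoters of the same length, 1 per gene. They lie 58 to 53 and 19 to 14 bases before the start in Faah, 29 to 24 in Susd5 and 220 to 215 in Prdm16. The CCAAT box of Prdm16 occurs in 34.5% of promoters. The letters AGATAA, searched for GATA factors, occur in 10.3% of promoters and in none of these windows. The Faah window does hold TGATAA, a related string that was not searched. Likewise absent from all 3 were CGGAAG for ETS factors, which 13.8% of promoters hold, and TGTGGT for RUNX factors, which 14.2% hold. The windows also lacked TGACAG for MEIS factors, present in 16% of all promoters. An E-box searched as CACCTG, in 17.1% of promoters, was not found. A TATA box searched as TATAAA, in 13.0% of promoters, was not found either. No matches overlapped. The Prdm16 window had 22 CpG and an observed over expected ratio of 0.990, above 93.7% of promoters. Faah (0.473) and Susd5 (0.527) were nearer to the median promoter (0.378).

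Genes around the 4 loci were compared next. With all 6 libraries, 7 of 13272 genes (0.0527%, with 0.0151% higher and 0.0377% lower in neonatal LICs) passed edgeR's quasi-likelihood test at an adjusted p under 0.05. Sex-linked Xist, Ddx3y, Eif2s3y, Kdm5d and Uty were among them. So was Pi15, which was chosen on this difference, so nothing is read from its call. The 4 named genes are left out of the window counts that follow. None of the 38 other tested genes within 500 kb of the 4 starts passed. Over all genes 1585 had an unadjusted p under 0.05, and DESeq2 called 328 higher and 444 lower. Without neonatal replicate 4, 828 of 13856 genes passed (5.98%; 3.72% higher and 2.25% lower). In that fit 3 of 39 genes in these windows passed (7.69%), all 3 near Susd5, where 12 were tested.

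The 3 genes near Susd5 were higher in neonatal LICs. Fbxl2, which encodes an F-box subunit of a ubiquitin ligase, starts 30.6 kb from the start of Susd5. It had CPM of 8.67, 23.1 and 26.7 in neonatal replicates 4, 7 and 8, against 3.02, 6.98 and 4.07 in adult replicates 1, 2 and 4. The groups did not overlap, and the log2 fold change was 2.07 ± 0.56 on 6 libraries (SE; edgeR adjusted p = 0.198). It was 2.42 ± 0.43 without neonatal replicate 4 (SE; edgeR adjusted p = 0.0402). Over 11 alternatives the adjusted p of Fbxl2 lay between 0.00606, with DESeq2, and 0.510, with edgeR. Fbxl2 shares the end of its gene model with Ubp1 on the other strand, so reads there cannot be told apart, and Ubp1 did not pass (log2 fold change -0.51).

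Crtap and Glb1 were named after their values were seen. Crtap, a cartilage-associated protein gene of collagen modification, had CPM of 24.5, 48.0 and 37.0 in neonatal replicates 4, 7 and 8, against 9.07 to 13.6 in adult LICs. Glb1, the lysosomal beta-galactosidase gene, was at 45.1, 78.3 and 77.6 CPM in neonatal LICs, against 24.0 to 28.8 in adult ones. Neither gene overlapped between the groups. Without neonatal replicate 4 the log2 fold change was 1.89 ± 0.27 for Crtap (SE, edgeR adjusted p = 0.0360) and 1.59 ± 0.19 for Glb1 (SE, edgeR adjusted p = 0.0320). Across 11 alternatives Crtap had adjusted p of 0.000664 to 0.417 and Glb1 of 0.00193 to 0.454 (edgeR, and DESeq2, which gave the lowest). All 3 neighbours, unlike Susd5, were well above the floor in every adult library.

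None of the nearest genes of the other 3 loci that could be tested passed in either fit. Crispld1, a CAP gene 96.5 kb from Pi15, had at most 0.311 CPM in any library, and Crisp4 and Defb44-ps had 0 counts throughout. Gdap1 and Ly96 lie on the other side of Pi15 and did not pass, and Jph1 was too low to test. Nsun4, an RNA methyltransferase gene 13.9 kb from Faah, was at 26.6, 18.7 and 11.2 CPM in neonatal LICs, against 9.32 to 17.6 in adult ones (log2 fold change 0.48, edgeR adjusted p = 0.749). Uqcrh, Lrrc41 and Mknk1 also did not pass near Faah, and Dmbx1 and Kncn were at or under 0.0838 CPM. Around Prdm16, Megf6, Actrt2 and Mmel1 had 0 counts in every library, Arhgef16 and Ttc34 stayed under 0.5 CPM, and Tprgl was at 140 to 188 CPM in neonatal LICs, against 141 to 149 in adult ones. On the far side of Susd5, Bcl2a1c, 4930525D18Rik and 4930520O04Rik did not pass, and Mir5128 had 0 counts.

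**Figure D4:**
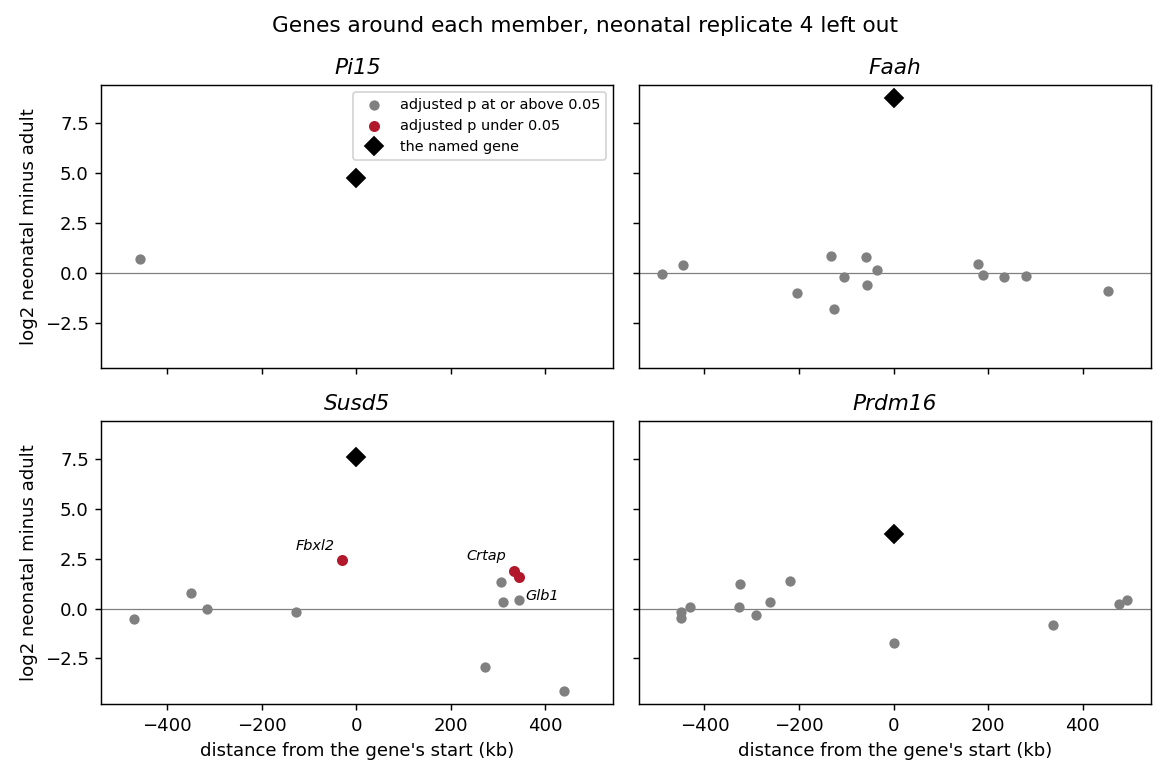
Log2 fold change (neonatal minus adult, edgeR, neonatal replicate 4 left out) of tested genes within 500 kb, against distance from the start of each named gene in its direction of transcription. Red points passed an adjusted p of 0.05, and black diamonds are the named genes, which were chosen on this difference. Red points appear around Susd5, at Fbxl2, Crtap and Glb1.

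Relatives and pathway partners of the 4 genes made 7 lists with 100 further genes in the table. On 6 libraries 62 were tested and 0 passed in either direction, with 8 at an unadjusted p under 0.05, while DESeq2 called 0 higher and 2 lower (Has2 and Stab2). Their median log2 fold change was -0.19, and that of all genes tested was 0.05. Without neonatal replicate 4, 5 of 67 passed (7.46%, beside 5.98% of all genes), and all 5 were higher in neonatal LICs. They were Pi16, Abhd12, Cd44, Ehmt1 and Ehmt2.

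Of the CAP superfamily, 13 genes besides Pi15 were in the table and 6 were tested, 4 positive and 2 negative (median 0.63). Without neonatal replicate 4, Pi16 alone passed. Pi16, a membrane-anchored relative, had CPM of 1.495, 68.9 and 66.9 in neonatal replicates 4, 7 and 8, against 15.5, 18.9 and 20.8 in adult LICs. It was high in the same pair as Susd5 and lowest of all in neonatal replicate 4, so the groups overlapped. Its log2 fold change was 1.89 ± 0.22 without that replicate (SE; edgeR adjusted p = 0.0320, over 11 alternatives 0.0320 to 0.913). Glipr1 was at 631, 290 and 234 CPM in neonatal LICs, against 64.3 to 285 in adult ones. Glipr1l1 was at 7.27 to 10.5 CPM in neonatal LICs, against 0.125 to 4.69 in adult ones. Glipr2, a Golgi-associated relative, had the opposite sign, at 12.6 to 25.9 CPM in neonatal LICs, against 34.3 to 65.3 in adult ones (log2 fold change -1.27, edgeR adjusted p = 0.269).

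In the pathway of Faah, 14 of 20 genes were tested, 6 positive and 8 negative (median -0.18), and Abhd12 alone passed, without neonatal replicate 4. Napepld, which releases anandamide from membrane lipid, was at 3.82 to 7.35 CPM in neonatal LICs, against 4.69 to 9.78 in adult ones. Naaa, the lysosomal enzyme that also degrades these amides, was at 4.58 to 9.04 CPM in neonatal LICs, against 4.66 to 14.2 in adult ones. Cnr2, the cannabinoid receptor gene of immune cells, was at 8.67, 31.6 and 32.2 CPM in neonatal LICs, against 28.7 to 42.9 in adult ones. These 3 genes, named after their values were seen, were expressed in both groups and overlapped between them.

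Fold changes of genes for the sister lipid 2-arachidonoylglycerol had both signs. Abhd12, a hydrolase of that lipid, was at 61.9, 111 and 95.9 CPM in neonatal LICs, against 41.4 to 55.0 in adult ones without overlap. It passed without neonatal replicate 4, where the fitted log2 difference came to 1.15 ± 0.20 (SE; edgeR adjusted p = 0.0401, over 11 alternatives 0.0401 to 0.678). Mgll, the main hydrolase of that lipid, was at 2.69, 4.92 and 5.38 CPM in neonatal and at 24.2, 17.6 and 4.19 CPM in adult replicates 1, 2 and 4 (log2 fold change -1.79, edgeR adjusted p = 0.352). Abhd6 was at 14.7, 2.13 and 4.58 CPM in neonatal LICs, against 0.0503 to 2.34 in adult ones. On the anandamide side, Abhd4, which acts on precursor lipids of anandamide, was at 52.6 to 72.7 CPM in neonatal LICs, against 14.8 to 51.5 in adult ones.

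Hyaluronan genes, set beside Susd5 for its link domain, gave 13 tested of 24, with 4 positive and 9 negative (median -0.50). Cd44, the main hyaluronan receptor of blood cells, had CPM of 81.6, 253 and 292 in neonatal replicates 4, 7 and 8, against 82.2 to 120 in adult LICs. Like Susd5 it was high in neonatal replicates 7 and 8 and at the adult level in replicate 4. The log2 fold change came to 1.39 ± 0.22 with that library left out (SE, edgeR adjusted p = 0.0360, over 11 alternatives 0.0360 to 0.794). Has2, a hyaluronan synthase gene, had 0 counts in the neonatal libraries and stood at 0.312 to 1.49 CPM in adult LICs (edgeR adjusted p = 0.151). Vcan, a large hyaluronan-binding proteoglycan gene, was at 0 to 0.340 CPM in neonatal LICs, against 0.715 to 1.78 in adult ones. Hyal2, a hyaluronidase gene, was at 5.98 to 12.3 CPM in neonatal LICs, against 0.503 to 4.01 in adult ones. Habp4 was at 12.9 to 18.9 CPM in neonatal LICs, against 7.58 to 8.85 in adult ones. Has2, Vcan, Hyal2 and Habp4 did not overlap between the groups, and none passed edgeR in either fit, while DESeq2 called Has2 on 6 libraries. For Has2 and Vcan, neonatal replicate 4 had 0 counts. Its floor of 0.897 CPM lies above their lowest adult levels, so that library cannot show a separation for them.

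Of 5 other sushi domain genes, 3 were tested and none passed. Susd1 was at 23.3, 101 and 156 CPM in neonatal LICs, against 63.1 to 71.3 in adult ones, without passing in either fit (edgeR adjusted p = 0.0568 without neonatal replicate 4). Susd3, and Susd6 under its older symbol 4933426M11Rik, overlapped between the groups and did not pass.

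Among the PRDM family, 14 genes besides Prdm16 were in the table, and of the 8 tested 4 were positive and 4 negative (median -0.14). None passed in either fit. Mecom, the closest relative of Prdm16, had 0 counts in all 6 libraries. Prdm2 was at 7.17 to 17.1 CPM in neonatal LICs, against 20.4 to 28.7 in adult ones. Prdm10 was at 1.20 to 3.33 CPM in neonatal LICs, against 3.40 to 4.72 in adult ones, and Prdm8 and Prdm11 overlapped between the groups. Prdm1, named after its values were seen, had 0 counts in neonatal libraries. It was at 0.436, 1.18 and 0 CPM in adult replicates 1, 2 and 4, so the groups overlapped.

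Of 15 genes for partners of the Prdm16 protein, 14 were tested, and 6 were positive and 8 negative (median -0.06). Ehmt1 and Ehmt2, the paired histone H3K9 methyltransferase genes, passed without neonatal replicate 4. Ehmt1 was at 23.6, 85.3 and 79.6 CPM in neonatal LICs, against 33.9 to 46.5 in adult ones, and Ehmt2 at 20.6, 84.4 and 78.7 CPM in neonatal LICs, against 36.1 to 48.7 in adult ones. In both, neonatal replicate 4 was below the adult libraries. Ehmt1 had a log2 fold change without it of 0.98 ± 0.21 (SE, edgeR adjusted p = 0.0498, over 11 alternatives 0.0498 to 0.924). Ehmt2 then had one of 0.95 ± 0.20 (SE; edgeR adjusted p = 0.0478, over 11 alternatives 0.0478 to 0.972). Skil, Ctbp2, Cebpb and Pparg had negative log2 fold changes of -1.82, -0.81, -0.62 and -1.43 on 6 libraries and did not pass. The sign of Pparg rested on adult replicate 1, and without that library its log2 fold change was 0.66. Of 10 brown fat targets, 4 were tested (median -0.30). Dio2, Cox7a1, Fabp3 and Acot2 overlapped between the groups, and Ucp1 and Cidea had 0 counts in every library.

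**Figure D5:**
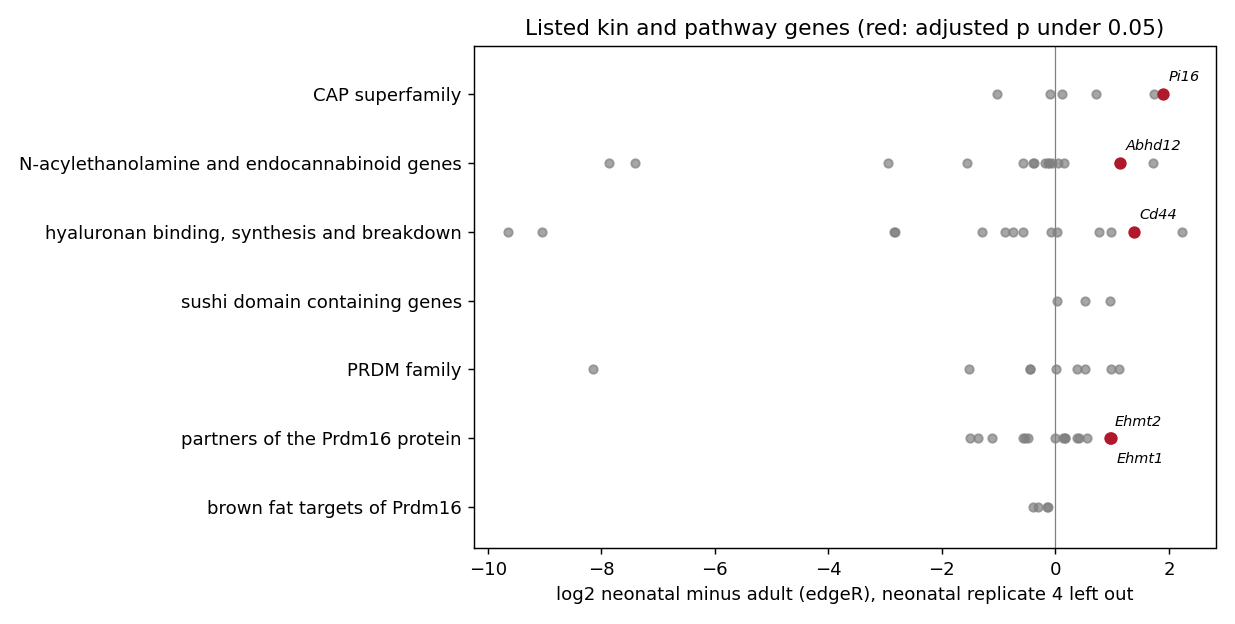
Log2 fold change (neonatal minus adult, edgeR, neonatal replicate 4 left out) of each tested gene in the 7 lists, the 4 named genes left out. Red points passed an adjusted p of 0.05, and all 5 lie right of 0. Points left of -7 are genes with 0 counts in neonatal replicates 7 and 8, whose fitted size depends on the prior count.

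Genes with the most similar profile were found for each of the 4 by the root mean square difference of centred log2 CPM over 6 libraries, a description with no test. Only genes that passed the low-count filter and had a neonatal mean of at least 2 CPM were searched, and predicted genes were passed over. The search was thus limited to genes expressed in the group where the 4 genes are high. The 4 genes were not each other's nearest. Their distances from one another were 1.5 (Pi15 to Faah) to 2.90 (Pi15 to Susd5). Nearest to Pi15 were Nr0b2 (0.556), Il17rb (0.762), Cd200r3 (0.872), Slamf6 (0.875) and Xist (0.920). Nr0b2, the gene of an orphan nuclear receptor, had CPM of 11.7, 6.57 and 4.88 in neonatal replicates 4, 7 and 8, against 0.164 to 0.592 in adult LICs. Il17rb encodes a receptor subunit for interleukin 25, and Slamf6 and Cd200r3 encode immune cell surface receptors. Nearest to Faah were Tex14 (0.852), Vangl2 (0.927), Epb4.1l4b (0.943), Satb1 (1.03) and Flt3 (1.09). Tex14, a gene known for intercellular bridges of germ cells, lay at 7.47, 34.4 and 36.2 CPM in neonatal replicates 4, 7 and 8, against 0.520 to 0.729 in adult LICs. Like Faah it was highest in neonatal replicates 7 and 8, with replicate 4 between them and the adult libraries. Satb1 encodes a chromatin organiser of lymphoid cells, Flt3 a receptor tyrosine kinase of early progenitors and Vangl2 a planar polarity protein.

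Nearest to Susd5 were Gata2 (1.17), Gem (1.32), Nrip1 (1.52), Epb4.1l4b (1.53) and Flt3 (1.75). Gata2, a transcription factor gene of stem cells, had CPM of 11.96, 124 and 484 in neonatal replicates 4, 7 and 8, against 3.52, 16.5 and 1.01 in adult replicates 1, 2 and 4. It shared with Susd5 the order of all 6 libraries except that neonatal replicate 4 fell below adult replicate 2. Nearest to Prdm16 were Adcy6 (1.47), Sncaip (1.52), Tmem59l (1.64), Nrip1 (1.66) and B3gnt7 (1.73). Adcy6, an adenylyl cyclase gene, lay at 0.598, 5.18 and 6.16 CPM in neonatal replicates 4, 7 and 8, against 1.68, 0 and 0 in adult replicates 1, 2 and 4. It shared with Prdm16 the single adult library with a clear level, and unlike Prdm16 it was low in neonatal replicate 4. Without neonatal replicate 4, 10 of these 20 places were held by the same genes, 4 of 5 for Susd5 and 2 of 5 for each of the others.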

How the data were processed

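PolyA-selected LIC RNA was read single-end from libraries that keep no strand, per the labels' protocols. The authors deposited raw read counts per gene, made with featureCounts v1.5.1 on primary alignments, with a UCSC gene annotation of mm10 and no strand option, per the file headers. Trimmomatic, TopHat, Bowtie and DESeq2 are further tools named in the submitters' processing notes. Exonic length is the deposited length column.

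Here edgeR 4.0.16 in R 4.3.3 fitted all genes: TMM scaling after filterByExpr with a minimum count of 10, then robust quasi-likelihood tests of neonatal against adult with Benjamini-Hochberg adjustment at 0.05. It was checked on simulated counts. The SE is the absolute log2 fold change divided by the square root of F. DESeq2 1.42.0, other scalings, no filter, no sex chromosomes and each library left out were alternatives. CPM are TMM-scaled, and log2 CPM for profiles had a prior count of 2. The members, lists and tests were chosen with earlier results of these data known. Up to 4 genes per list with the smallest p, those that passed, 3 neighbours on each side and 5 nearest profiles were named. Of the listed genes, 1 was not in the table, and 2 were matched by older symbols.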

Additional observations from a re-analysis of the deposited data

How the results depend on the processing

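The 4 genes were higher in neonatal LICs under every alternative run, which their choice fixes. Leaving out each library in turn gave log2 differences of 4.57 to 5.23 for Pi15, 5.97 to 6.89 for Faah, 5.74 to 7.93 for Susd5 and 3.14 to 7.13 for Prdm16, the last value without adult replicate 1. A pseudocount of 0.5 CPM in place of 0.05 gave 3.93 for Pi15 and 3.55 for Faah, since the adult level then counts for less than the constant added. Calls over all genes depended on the setting: 2 higher and 5 lower with 6 libraries became 0 to 516 higher and 1 to 312 lower with 1 library left out (516 and 312 without neonatal replicate 4, 0 higher with any 1 adult replicate left out), 328 higher and 444 lower with DESeq2, 1 higher with RLE scaling, and 0 higher and 0 lower without chromosomes X and Y. Of listed genes, 0 to 5 were called higher and 0 lower with 1 library left out, and DESeq2 called 2 lower. At 8 times the highest adult CPM, 38 genes had the replicate 7 and 8 pattern and 78.9% of them stood above the adult libraries in neonatal replicate 4. At 2 times it was 439 genes and 41.0%, a lowest neonatal CPM of 5 left 65 genes, and the Poisson bound gave 53.2%. Of 20 nearest profiles, 10 were shared without neonatal replicate 4. With 50 bases after the start added, Susd5 matched 3 motifs. The causes were not tested. No paired analysis was possible because the groups share replicate number 4 alone. Depth limits neonatal replicate 4, where 3 counts stand at 0.897 CPM. Some well-counted genes, named after their values were seen, also stood apart from the other 5 libraries in that replicate, in both directions. Ubp1 was at 32.3 CPM in it, against 76.0 to 97.6 in the others. Uqcrh was at 315 CPM, against 76.9 to 140. The part of such differences in the replicate 4 levels of the 4 genes was not tested.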
